A study of Mus musculus with 36 samples.

Results

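The ribosomal protein genes of BV-2 cells, an immortalized murine microglial line of wild-type genotype, were followed through 36 RNA-seq libraries that form 12 groups of 3. Members were chosen by name only. The cytosolic set took the protein-coding genes named Rpl or Rps with a number and an optional ending of a, l or x, together with Rplp0, Rplp1, Rplp2 and Rpsa. The mitochondrial set took the protein-coding genes whose symbols start with Mrpl or Mrps. Kinase genes named Rps6k and symbols marked as pseudogenes were left out. The rule gave 79 cytosolic genes, 48 of the large and 31 of the small subunit, and 78 mitochondrial genes, 49 of the large and 29 of the small subunit, which makes 157 of the 19879 genes in the tables. No measured value entered the choice.

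Cells had been treated for 4 or 24 h. The vehicle groups received DMSO or ethanol (EtOH) alone and carry the replicate numbers 4 to 6. The other groups received bacterial lipopolysaccharide (LPS, 600 ng/ml), a proinflammatory stimulus, either alone or with 30 µM dimethyl fumarate (DMF), 30 µM monomethyl fumarate (MMF) or 6 µM cannabidiol (CBD), and carry the numbers 1 to 3. DMF is the dimethyl ester and MMF the monomethyl ester of fumaric acid, and CBD is a plant cannabinoid. DMF and MMF were dissolved in DMSO and CBD in EtOH, with vehicle at 0.2% in all treated cells, and serum was lowered just before treatment in the LPS experiments. The labels do not say which vehicle the cells given LPS alone received, or whether the vehicle groups had the lowered serum. The vehicle groups also carry other replicate numbers than the LPS groups. LPS against a vehicle group may thus also differ in vehicle, serum or experiment, which cannot be told apart from LPS. This holds for changes over time compared between them too. The study repeated each experiment 3 times, and all libraries come from 1 cell line.

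Ribosomes build proteins from mRNA in the cytosol, and a smaller, separate kind of ribosome inside mitochondria translates the few mRNAs of the mitochondrial genome into subunits of the respiratory chain. Proteins of both kinds are encoded in the nucleus. Cytosolic ribosomal protein mRNAs are among the most abundant in growing cells and many begin with a pyrimidine-rich stretch, the 5′ terminal oligopyrimidine (TOP) tract, through which growth signalling by mTORC1 sets their translation and stability. Mitochondrial ribosomal protein mRNAs are less abundant, and their genes are usually regulated with other genes of mitochondrial biogenesis. New cytosolic ribosomes also need ribosome biogenesis factors, nucleolar proteins that transcribe and process ribosomal RNA.

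Libraries held 14.1 to 26.7 M counted reads, with a median of 16.2 M, and the depth limits only the lowest members. In CPM (reads scaled to an equal library total of 1e6), Ptprc was at 400 to 939, Csf1r at 282 to 902 and Spi1 at 140 to 434, whereas the homeostatic microglial markers Tmem119, P2ry12 and Cx3cr1 reached no more than 13, 6.13 and 21.4 CPM. Aif1 of the same list was low as well, at 1.33 to 9.42 CPM. All 12 of the 12 listed microglial and macrophage markers averaged at least 10 reads, and their sum ran from 1641 to 3010 CPM. Listed neuronal markers summed to 0.617 to 4.6 CPM and astrocytic markers to 0.331 to 1.68 CPM. Aqp4 and Snap25 were not among the genes given, so they had no measured value and added nothing to these sums. Oligodendrocyte markers summed to 44.3 to 94.2 CPM, mostly from Mbp, whereas Mog and Olig2 did not exceed 0.0638 and 0.0611 CPM. Between 4 and 24 h, 2 to 8 of the 12 microglial markers were called higher and 0 to 4 lower under each treatment. Of all genes, 24.7 to 31.6% were called higher and 24.3 to 31.6% lower. The part of the markers in the results was not tested. In bulk libraries a change in the number of cells of a kind and a change in RNA per cell cannot be told apart. A pair of libraries stood apart for the cytosolic set before any comparison. LPS 4 h replicate 2 had 7.32% of its reads on cytosolic members, against 5.66% and 6.09% in the other LPS libraries of that time, and LPS+DMF 4 h replicate 1 had 7.37%, against 6.1% and 6.5%. In another measure LPS 24 h replicate 1 stood apart, with 1.44% of its reads from the mitochondrial genome, against 2.32% and 2.04% in the other LPS libraries of that time. For the main results of the sets that rest on these 3 libraries, values without them are given beside the results.

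At the start of the gene, the sets differed in sequence. RefSeq start windows of 30 bases (10 before the annotated start and 20 from it on, build GRCm38.p6) were found for 59 cytosolic and 69 mitochondrial members. A start base C followed by 4 pyrimidines (C or T, on the gene's strand only) was present in 12 cytosolic windows (20.3%) and in 0 mitochondrial windows, against 2.31% of the 13623 windows of all protein-coding genes. A run of at least 7 pyrimidines anywhere in the window was present in 28 cytosolic (47.5%), 9 mitochondrial (13%) and 17.7% of all windows. The median longest run was 6 bases in cytosolic, 5 in mitochondrial and 4 in all windows. Since annotated starts can lie several bases from the start used in a given cell, an absent run says only that these letters were not in this window. Of the 28 cytosolic windows with such a run, 5 are shown as examples with the run in capitals, and Rps25, the leading cytosolic fall with LPS+DMF at 24 h, is set below them as a cytosolic member whose longest run was 4:
Rps6 (chr4:86857348-86857377, minus strand): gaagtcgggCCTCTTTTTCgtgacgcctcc
Rplp2 (chr7:141447641-141447670, plus strand): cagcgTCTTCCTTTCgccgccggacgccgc
Rps18 (chr17:33955646-33955675, minus strand): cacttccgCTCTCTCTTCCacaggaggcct
Rps15a (chr7:118116128-118116157, minus strand): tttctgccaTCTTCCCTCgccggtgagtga
Rps10 (chr17:27635225-27635254, minus strand): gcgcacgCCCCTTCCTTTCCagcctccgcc
Rps25 (chr9:44407704-44407733, plus strand): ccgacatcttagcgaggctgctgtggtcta
Members of the mitochondrial set that are named in the comparisons were of both kinds. Mrpl12, Mrpl44, Mrpl45, Mrpl52 and Mrps33 had a run of at least 7 pyrimidines, and Mrpl52 and Mrpl45 are shown first, followed by 5 that had none:
Mrpl52 (chr14:54426899-54426928, plus strand): gggccacgcccacttccggTTCCCTTgctc
Mrpl45 (chr11:97315706-97315735, plus strand): cgcgcgCCCCTCCCCTggagagcgtgcgcg
Mrpl34 (chr8:71464916-71464945, plus strand): acatttcccagaaggcattgtcaaggagcc
Mrpl20 (chr4:155802868-155802897, plus strand): ttcggaagagctgtcagtgctcttaaccct
Mrps6 (chr16:92058326-92058355, plus strand): tcgccgtccgggagctgaccggccgtgttc
Mrpl42 (chr10:95501930-95501959, minus strand): gcgcgctggacggcgcctttaggacccaga
Mrpl58 (chr11:115403742-115403771, plus strand): agtgagcaccggaagcggtcctgggaggtg

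Cytosolic members were far more abundant than mitochondrial ones. On a scale of CPM per kilobase of coding sequence, averaged over the 36 libraries, the median level was 1505 in the cytosolic set (range 0.0337 to 6097) and 73.6 in the mitochondrial set (range 18.5 to 241). The highest cytosolic levels belonged to Rpl41, which encodes the shortest ribosomal protein (6097 ± 771, SD over 36 libraries), to Rplp1 of the acidic stalk that recruits elongation factors (5434 ± 397) and to Rpsa, also known as a laminin receptor (3812 ± 339). Rplp2 and Rplp0, the partners of Rplp1 in the stalk, followed at 3611 and 3291. The lowest were the tissue-restricted paralogs Rpl39l (0.0337) and Rpl3l (0.299), then Rpl24 (1.85), Rps10 (18.2) and Rpl13a (98.6). In the mitochondrial set, Mrpl12, a stalk protein that also binds the mitochondrial RNA polymerase, was highest at 241 ± 60.8, followed by Mrpl34 at 230 ± 69.0 and Mrpl52 at 207 ± 41.7. Mrps27 (18.5 ± 2.19) and Mrps18c (18.8 ± 3.71) were lowest. No mitochondrial level was near zero.

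The levels of many cytosolic members, among them the low ones of Rpl24, Rps10 and Rpl13a, are uncertain, because reads that fit near-identical copies elsewhere in the genome, or a gene overlapping on the same strand, may not have been counted. Of all 64-base pieces of a cytosolic coding sequence, a median of 85.0% also occurred elsewhere in GRCm39, and 33 of 79 members had at least 90% of their pieces elsewhere. For the mitochondrial set the median was 0 and 54 of 78 members had no such piece, although Mrpl23 had 100%. The study's paired reads were longer than these pieces, so a shared piece alone need not make a read ambiguous. The share was 100% for Rpl24, 81.9% for Rps10 and 22.5% for Rpl13a, and these 3 genes also share 484, 475 and 621 exonic bases with the same-strand models Gm28037, Gm49804 and Gm45713. Across genes, which are not independent replicates, level and this share had a Spearman correlation of -0.09 in the cytosolic set (n = 79) and -0.01 in the mitochondrial set (n = 78). Exons of 32 cytosolic and 38 mitochondrial members overlap exons of a gene on the other strand, and 5 of each set overlap a gene on the same strand, among them Mrps6, which shares 404 exonic bases with Slc5a3. On the other strand, Rps25 shares 462 and 236 exonic bases with Trappc4 and Cenatac, and Mrpl34 shares 537 with Gm64263. Strand use in counting is not given in the sources used here, so reads of such partners cannot be told apart.

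**Figure D1:**
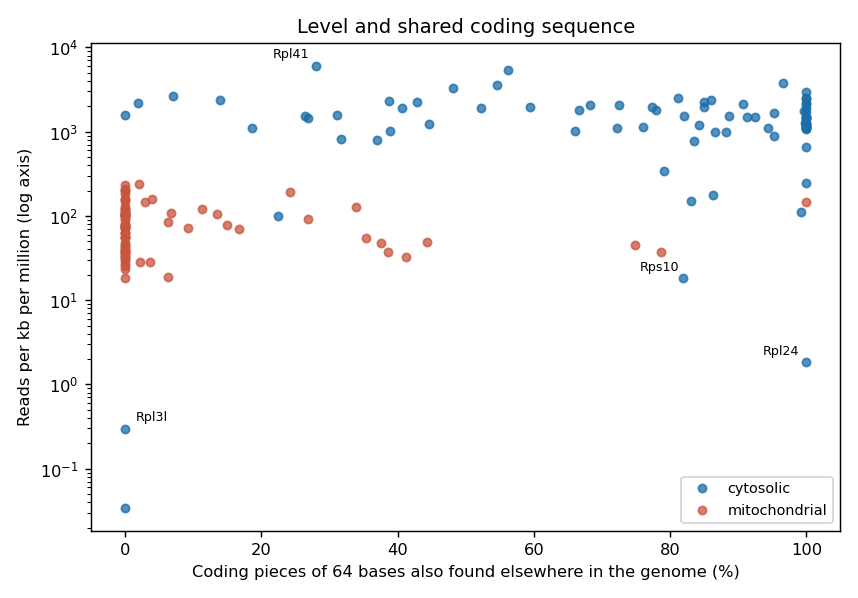
Level of each member (mean CPM per kilobase of coding sequence over 36 libraries, log axis) against the percent of its 64-base coding pieces found elsewhere in the genome, 1 point a gene. The cytosolic set lies to the right, with a median share of 85.0%, and the mitochondrial set is mostly at 0.

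Of all counted reads, the cytosolic set took 5.66 to 7.37% at 4 h (median 6.18%, 18 libraries) and 5.77 to 7.21% at 24 h (median 6.55%, 18 libraries), and these ranges overlapped. The mitochondrial set took 0.384 to 0.469% at 4 h (median 0.435%) and 0.316 to 0.377% at 24 h (median 0.341%), so each of the 18 libraries at 24 h lay below each of the 18 at 4 h. The ratio of cytosolic to mitochondrial reads was 12.7 to 16.9 at 4 h and 17.1 to 22.2 at 24 h and did not overlap either. These shares describe the sets, and no test was made of them.

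By group, the cytosolic share was 6.16% ± 0.371 (SD, n = 3) in DMSO at 4 h and 6.96% ± 0.212 at 24 h, and 6.11% ± 0.295 and 6.93% ± 0.190 in EtOH. With LPS alone it was 6.36% ± 0.863 and 6.51% ± 0.105. With LPS+DMF it was 6.66% ± 0.652 and 6.45% ± 0.031. LPS+MMF had 6.36% ± 0.438 and 6.6% ± 0.143, and LPS+CBD had 6.02% ± 0.214 and 6.14% ± 0.328. The vehicle groups at 24 h were thus the highest group means, and the spread within the LPS group at 4 h came from replicate 2. The mitochondrial share went from 0.433% to 0.341% in DMSO, from 0.443% to 0.338% in EtOH, from 0.440% to 0.362% with LPS, from 0.422% to 0.334% with LPS+DMF, from 0.427% to 0.355% with LPS+MMF and from 0.425% to 0.339% with LPS+CBD. The mean ratio of the sets reached 20.5 ± 1.43 in DMSO and 20.6 ± 1.73 in EtOH at 24 h, and 18 ± 1.52, 19.3 ± 0.730, 18.6 ± 1.23 and 18.1 ± 0.290 with LPS, LPS+DMF, LPS+MMF and LPS+CBD.

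**Figure D2:**
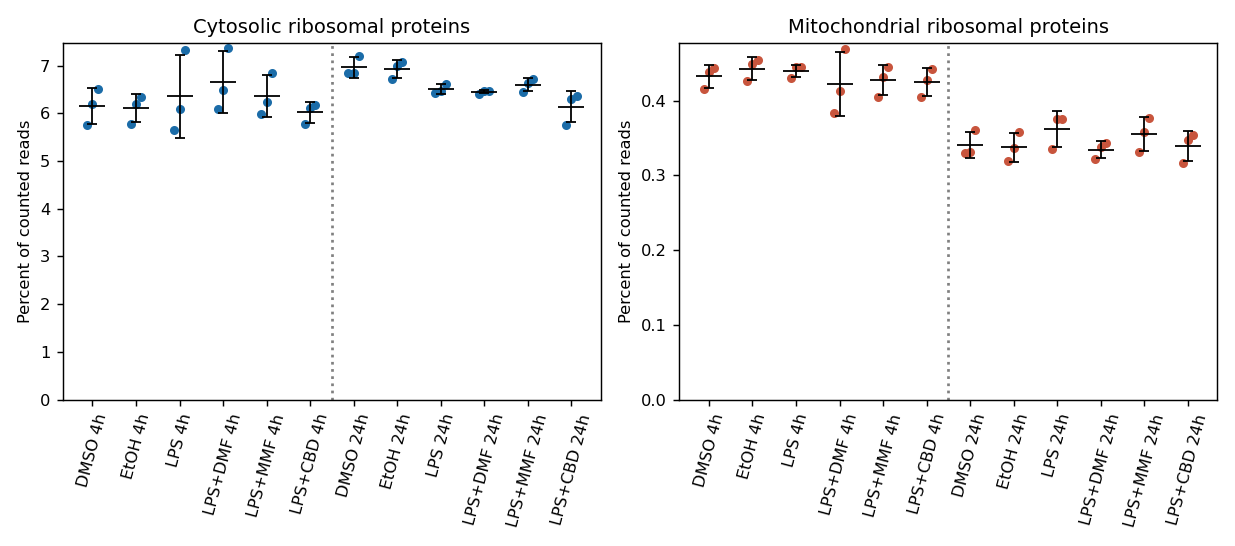
Percent of counted reads on cytosolic members and on mitochondrial members in each of the 36 libraries (points), by group, with the mean and SD of 3 libraries. The mitochondrial share is lower in all 24 h libraries (0.316 to 0.377%) than in all 4 h libraries (0.384 to 0.469%).

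Gene by gene, 44 to 53 of the 78 mitochondrial members were called lower at 24 h than at 4 h under each treatment, and 34 and 32 cytosolic members were called higher at 24 h in the vehicle groups. Values are reads divided by the authors' size factors (normalized counts), and each log2 fold change is on the log2(normalized count + 1) scale, tested with limma and called at an adjusted p below 0.05. In DMSO, 49 of 78 mitochondrial members fell and 2 rose (median log2 change -0.33), and 34 of 77 tested cytosolic members rose and 1 fell (median 0.19), where 25.7% of all tested genes were called higher and 25.8% lower. In EtOH, 53 mitochondrial members fell and 3 rose (median -0.39), and 32 of 78 cytosolic members rose and 1 fell (median 0.16), beside 29.1% and 29.5% of all genes. The median over all tested genes was 0.00 in both vehicles. In DMSO, the cytosolic rises comprised 23 of 46 large-subunit and 11 of 31 small-subunit members, and the mitochondrial falls comprised 31 of 49 and 18 of 29. The mitochondrial counts kept within 41 to 52 of 78 in DMSO and 48 to 57 in EtOH when any library was left out. The cytosolic counts were less stable. They were 15, 19, 20 and 18 without DMSO 24 h replicate 5 or 6 or DMSO 4 h replicate 4 or 6, and 21 without EtOH 24 h replicate 5 or EtOH 4 h replicate 4 or 6.

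In the groups with LPS, 44 to 49 mitochondrial members fell, and 0 to 6 cytosolic members rose. With LPS alone, 45 mitochondrial members fell and 3 rose (median -0.29, beside 24.3% and 24.7% of all genes), whereas only Rpl3 of 77 cytosolic members rose and Rps27l and Rpl21 fell (median -0.02). With LPS+MMF, 44 mitochondrial members fell and 4 rose (median -0.30, beside 24.3% and 25.1%), and in the cytosolic set Rpl13a rose and Rps27l fell (median 0.06). With LPS+DMF, 49 mitochondrial members fell and 1 rose (median -0.37), and 12 cytosolic members fell and 0 rose (median -0.14), beside 29.1% lower and 29.7% higher. With LPS+CBD, 45 mitochondrial members fell and 7 rose (median -0.34), and 16 cytosolic members fell and 6 rose (median -0.03), beside 31.6% in each direction. The gap between the median changes of the sets (cytosolic minus mitochondrial) was 0.51 in DMSO, 0.54 in EtOH, 0.27 with LPS, 0.37 with LPS+MMF, 0.23 with LPS+DMF and 0.31 with LPS+CBD. Replicate numbers paired the libraries in LPS and LPS+MMF, and with the number as a block the cytosolic counts were 7 (2 higher, 5 lower) and 18 (14 higher, 4 lower). Shares of all genes, here and below, are those of the main fit. None is given for the block or the other alternatives, so counts under these have no share beside them. Without LPS 4 h replicate 2 the LPS count was 10, of which 9 rose (median 0.13), and it was 1 without LPS 4 h replicate 1 or 3 or LPS 24 h replicate 2 or 3, and 2 (median 0.00) without LPS 24 h replicate 1. The LPS+MMF count was 12 without the 4 h replicate 3, 4 without the 4 h replicate 2 or the 24 h replicate 1, and 1 without the 4 h replicate 1. The LPS+DMF count was 22 without the 4 h replicate 3, and 10 with a median of -0.02 without the 4 h replicate 1, which stood apart. The mitochondrial falls were 39 with LPS without LPS 4 h replicate 2, 43 without LPS 24 h replicate 1, and 41 with LPS+DMF without its 4 h replicate 1. With a trend on transcript length and GC content removed, the LPS+CBD cytosolic split was 2 higher and 23 lower.

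Whether the time change itself differed between LPS and vehicle was tested as an interaction. For the cytosolic set, the change with LPS minus that in DMSO was below 0 in 75 of 77 members (median -0.19), and against EtOH in 74 of 77 (median -0.18), yet 0 members passed in limma in either test. The unadjusted p was below 0.05 for 1 and 2 members, edgeR's quasi-likelihood test also called 0, and 9.36% and 9.05% of all genes were called. With the replicate number as a block within LPS and within the vehicle, 5 and 2 cytosolic members were lower. Leaving out LPS 4 h replicate 1 gave 1 cytosolic call in each. Without LPS 4 h replicate 2, which stood apart, 0 cytosolic members were called and the medians were -0.06 against DMSO and -0.04 against EtOH. For the mitochondrial set the median difference was 0.00 against DMSO and 0.06 against EtOH, with 0 called, 6 and 7 members below an unadjusted p of 0.05 and 0 by edgeR, although 1 was called against DMSO without DMSO 24 h replicate 4 and 1 against EtOH without LPS 24 h replicate 2. A difference of the time change between LPS and vehicle is therefore not shown for single members of either set.

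**Figure D3:**
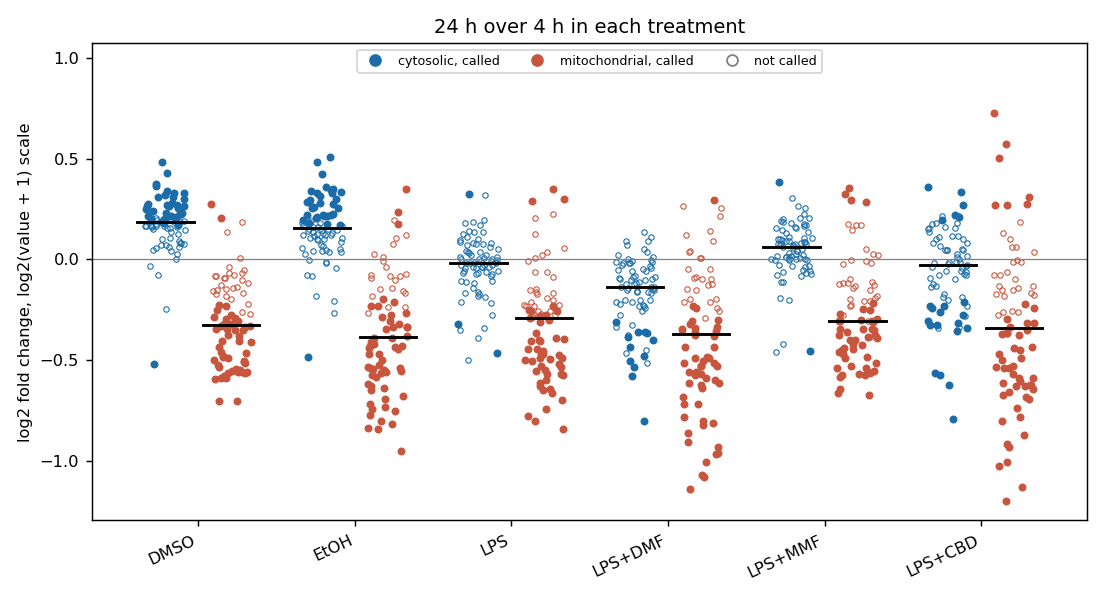
Log2 change between 4 and 24 h of each tested member, by treatment (columns), for the cytosolic and the mitochondrial set. Filled points passed at an adjusted p below 0.05 in limma and bars are medians, which lie at -0.29 to -0.39 for the mitochondrial set and at -0.14 to 0.19 for the cytosolic set.

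The 6 time comparisons share no libraries. Replicate numbers did pair libraries of several treatments within a time, so repeats over the 6 are not independent. Of the 78 mitochondrial members, 27 were called lower in all 6, 56 had a negative change in all 6, and 15 were called lower in none. In the single comparisons 24.3 to 31.6% of all genes were called lower. Repeats over all 6 were not counted for all genes, so these counts have no share of all genes beside them. Mrpl34 (ENSMUSG00000034880, GRCm39 chr8:71917603-71918391), a large-subunit protein with a bacterial counterpart, had 860, 721 and 698 normalized counts at 24 h against 1448, 1088 and 1183 at 4 h in DMSO, and 563, 519 and 605 against 1299, 1199 and 1380 with LPS+CBD. All 24 h libraries were below all 4 h libraries in both. The change of Mrpl34 was -0.70 ± 0.11 (SE, adjusted p = 0.000517) in DMSO and -1.20 ± 0.09 (adjusted p = 3.33e-06) with LPS+CBD, which was the steepest fall of the set in each. Members named as the largest rise or fall of a comparison had to show no overlap of libraries, so such separation was set by the choice. Between the times, 58.5 to 68.7% of all tested genes were apart under each treatment. With LPS alone the Mrpl34 libraries at 24 h were spread (1246, 795 and 981 against 1227, 1466 and 1254), and the groups overlapped at a change of -0.40 ± 0.15 (adjusted p = 0.0446).

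Mrps6 (ENSMUSG00000039680, chr16:91855158-91909115), a small-subunit protein, led the falls in EtOH, with 605, 648 and 516 normalized counts at 24 h against 1094, 1207 and 1114 at 4 h (-0.95 ± 0.10, adjusted p = 2.88e-05). It also led with LPS alone, with 525, 421 and 432 against 749, 903 and 818 (-0.84 ± 0.11, adjusted p = 0.000373). The times did not overlap in either, and part of the reads given to Mrps6 may belong to Slc5a3 on the same strand. Mrpl42, a protein particular to mitochondrial ribosomes, led with LPS+DMF, at 904, 778 and 783 against 2195, 1570 and 1712 normalized counts (-1.14 ± 0.13, adjusted p = 3.98e-05). Mrpl20, which has a bacterial counterpart in early large-subunit assembly, led with LPS+MMF, at 1026, 912 and 1139 against 1687, 1533 and 1665 (-0.67 ± 0.09, adjusted p = 0.000216). Again the times were fully apart. The most abundant member, Mrpl12, fell in all 6 comparisons, for example from 2641, 2443 and 2702 to 1806, 1693 and 1779 normalized counts in DMSO (-0.56 ± 0.07, adjusted p = 9.04e-05), with changes of -0.75 in EtOH, -0.64 with LPS, -0.81 with LPS+DMF, -0.59 with LPS+MMF and -0.93 with LPS+CBD. Mrps12, a protein of the decoding site, also fell in all 6, by 0.30 to 0.49 on the log2 scale.

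A minority of mitochondrial members did not follow. Changes of Mrpl14, Mrpl24, Mrpl33 and Mrpl45 were positive in all 6 comparisons. Mrpl45, which lies at the exit of the ribosomal tunnel facing the inner membrane, was called higher in 5 of them. With LPS alone it had 1461, 1586 and 1637 normalized counts at 24 h against 1172, 1284 and 1212 at 4 h (0.35 ± 0.08, adjusted p = 0.00576), and the times did not overlap. Mrpl24 was the largest mitochondrial rise in DMSO (506, 470 and 464 against 404, 399 and 388, 0.27 ± 0.08, adjusted p = 0.0191) and with LPS+MMF (548, 547 and 536 against 390, 448 and 439, 0.35 ± 0.10, adjusted p = 0.00988). The Mrpl24 call in DMSO was lost without DMSO 24 h replicate 4 (adjusted p = 0.0619) or DMSO 4 h replicate 6 (adjusted p = 0.0672), and its exons overlap 1019 bases of Mettl25b on the other strand. Mrpl14 rose most in EtOH (514, 576 and 557 against 405, 448 and 440, 0.35 ± 0.09, adjusted p = 0.0068), and Mrpl19 with LPS+DMF (1488, 1587 and 1622 against 1370, 1221 and 1232, 0.30 ± 0.09, adjusted p = 0.0129), the latter not without LPS+DMF 24 h replicate 3 (adjusted p = 0.0658). Mrpl58 (ENSMUSG00000018858, chr11:115294578-115303500), the peptidyl-tRNA hydrolase that rescues stalled mitochondrial ribosomes, was called higher with LPS+CBD, from 296, 239 and 301 to 507, 411 and 467 normalized counts (0.73 ± 0.12, adjusted p = 0.000614), was called lower with LPS+MMF (log2 change -0.30) and was not called in the other 4 comparisons.

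Within the cytosolic set, Rps27l (ENSMUSG00000036781, chr9:66853368-66856798) fell under each treatment. It is a paralog of Rps27 known as a p53 target, and it was the only cytosolic member called lower in all 6 comparisons. Its normalized counts were 2594, 2327 and 2050 at 24 h against 3280, 3424 and 3241 at 4 h in DMSO (-0.52 ± 0.08, adjusted p = 0.0005), and 2616, 2603 and 2622 against 5547, 4215 and 4041 with LPS+DMF (-0.80 ± 0.11, adjusted p = 0.000185). The times did not overlap in either. In the other comparisons the Rps27l change was -0.48 in EtOH, -0.47 with LPS, -0.45 with LPS+MMF and -0.63 with LPS+CBD. Its paralog Rps27 was not called in any, with 5109, 6135 and 4004 against 4075, 5392 and 3563 in DMSO (0.23 ± 0.16, adjusted p = 0.264), and those libraries overlapped. Rps10 was the other cytosolic member with a negative change in all 6 comparisons, and it was called lower in 2.

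No cytosolic member was called higher in all 6 comparisons, and 37 of 79 were called higher in at least 1. The same was not counted for all genes, of which 24.7 to 31.6% were called higher in the single comparisons. Rpl12, Rpl13, Rpl13a, Rpl17, Rpl27a, Rpl3, Rps3 and Rpsa had positive changes in all 6. The largest rise in DMSO was Rpl13a, which also acts outside the ribosome in the interferon-activated inhibitor of translation, with 1038, 1116 and 1069 normalized counts at 24 h against 678, 914 and 729 at 4 h (0.48 ± 0.10, adjusted p = 0.00281). Its reads may be split with Gm45713 on the same strand. Rpl13a rose with LPS+MMF too (0.38 ± 0.13, adjusted p = 0.0253), where 1127, 1379 and 1178 stood against 789, 1127 and 929 and the call was lost without the 24 h replicate 2 (adjusted p = 0.089) or the 4 h replicate 1 (adjusted p = 0.103) or 3 (adjusted p = 0.0743). Rpl17 led in EtOH, at 13731, 14787 and 15617 against 9207, 11817 and 10164 (0.51 ± 0.09, adjusted p = 0.000932), without overlap. Rpl3, which shapes the peptidyl transferase centre, rose in DMSO (0.32), EtOH (0.43) and with LPS. In the latter 26113, 25417 and 24913 normalized counts stood above 18304, 23154 and 19763 (0.33 ± 0.11, adjusted p = 0.034), a Rpl3 call that was lost without any of LPS 24 h replicates 1 to 3 (adjusted p = 0.0754, 0.066 and 0.0855) or LPS 4 h replicates 1 and 3 (adjusted p = 0.128 and 0.125).

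Among members with known further roles, Rpl5, which binds Mdm2 with Rpl11, rose in DMSO (0.34) and EtOH (0.35), and Rpl11 rose in DMSO (0.20) and fell with LPS+CBD (-0.23). Rps6, the target of the S6 kinases, rose in DMSO (0.22) and EtOH (0.19) and fell with LPS+DMF (-0.31). Rps3 of the mRNA entry channel rose in DMSO (0.33) and EtOH (0.34), and Rpsa in DMSO (0.28) and EtOH (0.32). The stalk proteins Rplp0, Rplp1 and Rplp2 were called in none of the 6, with changes of 0.17, 0.06 and 0.07 in DMSO and -0.16, -0.07 and -0.04 with LPS. With LPS+CBD the sets of rising and falling cytosolic members were led by Rps15a, at 8579, 7522 and 8172 against 5870, 6633 and 6423 (0.36 ± 0.08, adjusted p = 0.00311), and by Rps10, at 126, 88.7 and 107 against 192, 202 and 162 (-0.79 ± 0.16, adjusted p = 0.00198). Both were apart in all libraries. The counts of Rps10 are low, and 475 of its exonic bases overlap the same-strand model Gm49804.

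**Figure D4:**
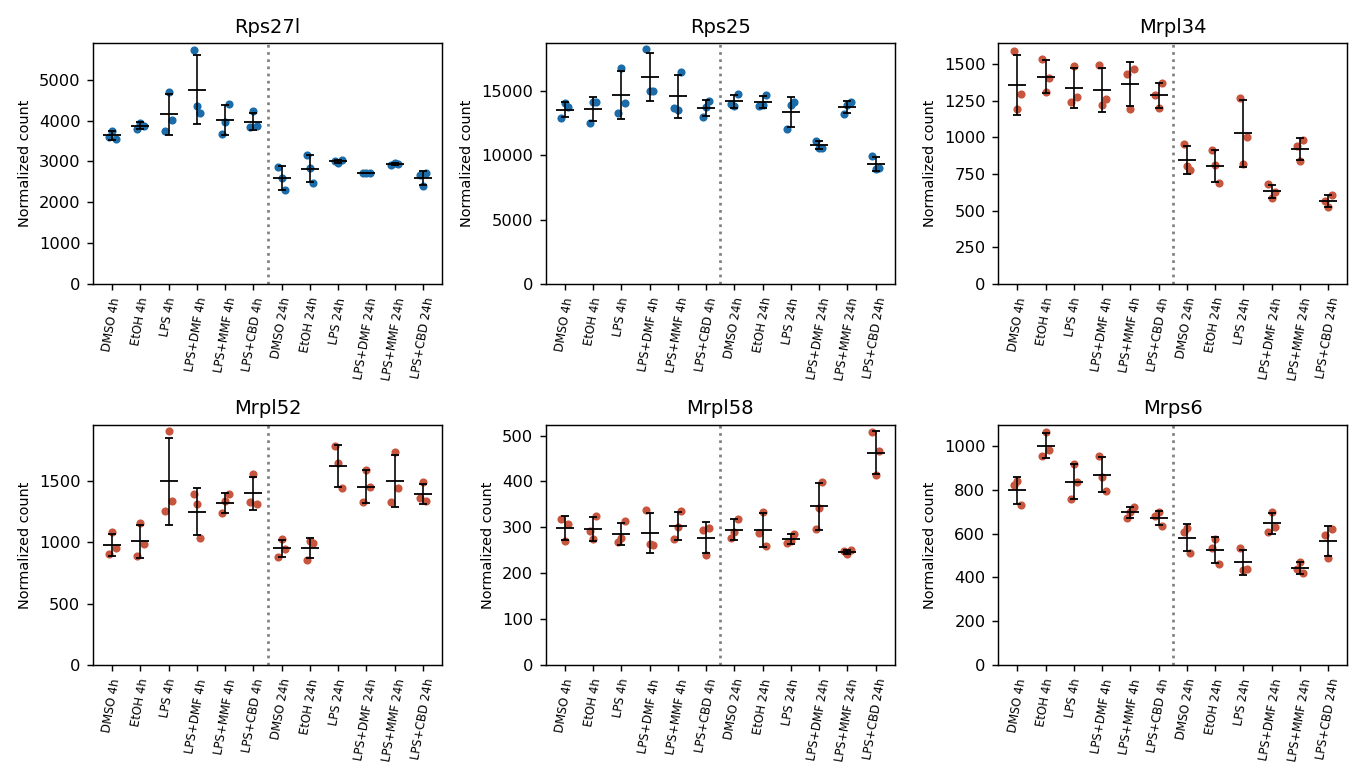
Normalized counts (on the scale of all 36 libraries together) of Rps27l, Rps25, Mrpl34, Mrpl52, Mrpl58 and Mrps6 in the 12 groups, 1 point a library, with the group mean. Mrpl34 is lower at 24 h, most so with LPS+DMF and LPS+CBD, Mrpl52 is higher in groups with LPS, and Mrpl58 is highest with LPS+CBD at 24 h.

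Other genes of the 2 translation systems were counted from lists. Most ribosome biogenesis factors fell, with 47, 49, 48, 51, 51 and 51 of 52 lower at 24 h in DMSO, EtOH, LPS, LPS+DMF, LPS+MMF and LPS+CBD, 0 higher, and medians of -0.52, -0.68, -0.65, -0.65, -0.56 and -0.80. The nucleolar protein Ncl changed by -0.47 in DMSO and -0.86 with LPS+CBD, and Polr1b, a subunit of RNA polymerase I, by -0.75 and -1.27. Elongation factors and other TOP mRNAs were mixed, as 7 of 19 rose and 4 fell in DMSO (median 0.13) and in EtOH (median 0.08), and 0 rose and 12 fell with LPS+DMF (median -0.28). With LPS alone 0 rose and 5 fell (median -0.06), with LPS+MMF 0 and 5 (median -0.04), and with LPS+CBD 2 and 9 (median -0.21). Of all genes, 25.8, 29.5, 24.3, 29.1, 24.3 and 31.6% were called lower in these 6 comparisons and 25.7, 29.1, 24.7, 29.7, 25.1 and 31.6% higher, in the same order. The counts of biogenesis factors called lower were thus above the share of all genes in each.

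Factors of mitochondrial translation and mitoribosome assembly fell in 12 to 17 of 31 and rose in 2 to 8, with medians between -0.20 and -0.34. The elongation factor Tufm fell in all 6, by 0.31 in DMSO and by 0.84 with LPS+CBD. Nuclear subunits of oxidative phosphorylation fell in 30 of 78 in DMSO (4 rose, median -0.14), 31 of 78 in EtOH (5 rose, -0.14), 17 of 77 with LPS (1 rose, -0.17), 16 of 78 with LPS+MMF (3 rose, -0.08), 43 of 77 with LPS+DMF (2 rose, -0.38) and 44 of 77 with LPS+CBD (4 rose, -0.30). The LPS and LPS+MMF counts are below the 24.3% of all genes called lower in each of these comparisons. Of the mitochondrial genome's own mRNAs, 4 to 9 of 11 or 12 tested fell and 0 or 1 rose. Cell division genes also fell at 24 h, in 17, 17, 14, 20, 16 and 20 of 20 across DMSO, EtOH, LPS, LPS+DMF, LPS+MMF and LPS+CBD, and their part in the ribosomal changes was not tested.

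Ribosomal proteins with other symbols were given apart. Fau, which encodes a small-subunit protein fused to a ubiquitin-like one, rose in DMSO (0.31) and EtOH (0.34), and Rack1, the signalling scaffold on the small subunit, in DMSO (0.22) and EtOH (0.26), with neither called with LPS. Rpl22l1, the paralog of Rpl22, rose in DMSO (0.49) and EtOH (0.54), and Rpl7l1, a nucleolar paralog of Rpl7, fell in all 6 (-0.27 to -0.88). Of 5 mitochondrial ribosomal proteins outside the rule, Ptcd3 and Gadd45gip1 fell in all 6, and Dap3 rose in DMSO (0.21) and EtOH (0.22).

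LPS against the vehicles changed few members at either time. At 4 h, 0 of 77 cytosolic members were called against DMSO, where 14.1% of all genes were, although 76 had a positive change (median 0.13). None had an unadjusted p below 0.05, and edgeR called 0. Against EtOH 0 were called (10.2% of all genes), 74 changes were positive (median 0.13), 1 had an unadjusted p below 0.05 and edgeR called 0. These positive medians rested on LPS replicate 2, without which they were -0.01 against DMSO and -0.00 against EtOH, with 0 called in each. With the length and GC trend removed, the median against DMSO was also -0.00. At 24 h the medians were -0.07 and -0.06, with 0 called in each (22.7% and 20.5% of all genes), 3 and 2 at an unadjusted p below 0.05 and 0 by edgeR. Removing a trend on transcript length and GC content changed this at 24 h, since 17 cytosolic members were then lower against DMSO and 6 against EtOH. The share of all genes with this trend removed is not given. Cytosolic members are short, with a median exonic length of 1096 bases against 3153.5 over protein-coding genes. A length trend and a shift of the whole set can thus not be fully told apart. Leaving out LPS 24 h replicate 2 gave 5 and 7 lower members. Leaving out LPS 24 h replicate 1 or DMSO 24 h replicate 4 gave 1 higher against DMSO, and leaving out LPS 24 h replicate 3 gave 1 lower against EtOH. At 4 h, leaving out LPS replicate 1 gave 1 higher against DMSO.

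In the mitochondrial set 5 members rose with LPS at 4 h against DMSO (median 0.09, beside 7.7% higher and 6.38% lower over all genes) and 1 against EtOH (median 0.06, beside 5.69% and 4.48%), with 0 falls. At 24 h, 6 rose and 1 fell against DMSO (median 0.09, beside 12.1% and 10.6%) and 5 rose and 0 fell against EtOH (median 0.10, beside 10.8% and 9.72%). These shares are near or below those of all genes, and with the length and GC trend removed the split at 24 h was 2 higher and 3 lower against DMSO and 2 higher and 2 lower against EtOH. The comparisons with DMSO and EtOH share the LPS libraries. The counts moved with single libraries. At 4 h against DMSO they were 0 without DMSO replicate 5 or 6 or LPS replicate 3, 2 without LPS replicate 2 and 3 without LPS replicate 1, and against EtOH 0 without EtOH replicate 4, 5 or 6 or LPS replicate 3 and 1, a fall, without LPS replicate 2. At 24 h against DMSO they were 12 without LPS replicate 2, 4, 2 and 1 without DMSO replicates 4, 5 and 6 and 1 without LPS replicate 3, and against EtOH 10 without LPS replicate 2, 2 without EtOH replicate 5 or LPS replicate 3 and 3 without EtOH replicate 6. Without LPS 24 h replicate 1, which stood apart, 5 mitochondrial members were called against each vehicle.

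Mrpl52 (ENSMUSG00000010406, chr14:54664366-54667213), a large-subunit protein particular to mitochondrial ribosomes, was the largest rise with LPS. At 4 h it had 1186, 1805 and 1253 normalized counts with LPS against 848, 1032 and 905 in DMSO, with LPS replicate 2 the highest and no overlap. The change was 0.59 ± 0.15 (adjusted p = 0.0363), and it missed the threshold against EtOH (0.56 ± 0.16, adjusted p = 0.0698). At 24 h Mrpl52 had 1687, 1566 and 1355 against 824, 966 and 885 in DMSO and, scaled with EtOH, 2038, 1893 and 1635 against 969, 1150 and 1133. The groups were wide apart, at 0.78 ± 0.10 (adjusted p = 0.000202) and 0.77 ± 0.10 (adjusted p = 0.00028). The lack of overlap was set by the choice, and 31.4 to 39.9% of all tested genes were apart with LPS against a vehicle. The Mrpl52 call at 24 h held in all 11 alternatives of each comparison, whereas the one at 4 h was lost without DMSO replicate 4, 5 or 6 or LPS replicate 3 (adjusted p = 0.107, 0.0535, 0.129 and 0.0693).

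Smaller changes were Mrpl39 at 4 h, with 906, 1023 and 977 normalized counts under LPS against 753, 811 and 782 in EtOH (0.31 ± 0.07, adjusted p = 0.032), and a fall of Mrpl9 at 24 h, with 839, 806 and 898 against 1067, 973 and 990 in DMSO (-0.25 ± 0.08, adjusted p = 0.0408). Both were apart in all libraries. The Mrpl9 call was lost without any of its 6 libraries (adjusted p = 0.0611 to 0.131), and the Mrpl39 call without any of its libraries but LPS replicate 1 (adjusted p = 0.0513 to 0.13). Mrpl33, with a bacterial counterpart, rose by 0.33 against DMSO and by 0.30 against EtOH at 24 h, and Mrpl16 by 0.40 and 0.43.

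The pathway lists had few calls with LPS, other than biogenesis factors at 4 h against DMSO. Of all genes, 14.1% and 10.2% were called at 4 h and 22.7% and 20.5% at 24 h against DMSO and EtOH. Those called higher were 7.7% and 5.69% at 4 h and 12.1% and 10.8% at 24 h. Biogenesis factors rose in 9 of 52 at 4 h against DMSO and 3 against EtOH (1 fell), and in 4 and 6 at 24 h (1 fell in each). The rises at 4 h against DMSO were above the share of all genes called higher, and the other rises were near or below it. Elongation and TOP genes had 0 of 19 called in these 4 comparisons, with medians of 0.10, 0.12, -0.10 and -0.04. Mitochondrial translation factors had 1 of 31 higher in each at 4 h, 1 higher and 1 lower against DMSO at 24 h and 0 against EtOH. Respiratory subunits had 0 of 77 at 4 h, and 7 higher and 2 lower of 78 against DMSO and 2 and 2 against EtOH at 24 h.

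The drugs were each set against LPS alone, so these comparisons share the LPS libraries of their time. At 4 h no cytosolic member was called with LPS+DMF (median 0.11, 11.1% of all genes called), LPS+MMF (median -0.03, 0.122%, with 0.0787% higher and 0.0437% lower) or LPS+CBD (median -0.09, 0.00875%). None had an unadjusted p below 0.05 in any of the 3, and edgeR called 0. In the mitochondrial set 2 members fell with LPS+DMF (6.51% of all genes lower and 4.55% higher) and 0 were called with LPS+MMF or LPS+CBD, where 5 and 2 had an unadjusted p below 0.05 and edgeR called 0. The LPS+DMF falls were Mrps2, a platform protein of the small subunit, with 1648, 1518 and 1501 against 2202, 1919 and 1992 normalized counts (-0.39 ± 0.09, adjusted p = 0.0218), and Mrpl44, a relative of ribonuclease III, with 620, 445 and 496 against 700, 725 and 724 (-0.47 ± 0.13, adjusted p = 0.0421). Both were apart in all libraries, beside 30.1% of all tested genes. The Mrpl44 call was lost without LPS replicate 1, 2 or 3 (adjusted p = 0.0971, 0.088 and 0.156) or LPS+DMF replicate 2 or 3 (adjusted p = 0.0976 and 0.157), and the mitochondrial count was 0 in these cases other than LPS replicate 2, where it was 1. Without both of the libraries that stood apart, LPS replicate 2 and LPS+DMF replicate 1, 3 mitochondrial and 0 cytosolic members were called, and the LPS+DMF medians were 0.17 in the cytosolic and -0.09 in the mitochondrial set. Without LPS+DMF replicate 1 alone, 3 mitochondrial and 0 cytosolic members were called, and these medians were 0.03 and -0.10. Without LPS replicate 2 the cytosolic median was 0.26 for LPS+DMF, 0.11 for LPS+MMF and 0.04 for LPS+CBD, and the mitochondrial one -0.01, -0.03 and -0.06, with 0 members called for LPS+MMF and LPS+CBD. The signs of the cytosolic medians for LPS+MMF and LPS+CBD at 4 h thus turned with 1 library.

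At 24 h, 5 of 77 cytosolic members fell with LPS+DMF (Rps25, Rpl3, Rps6, Rpl8 and Rpl15) and 0 rose (median -0.01, beside 13.2% lower and 11.9% higher among all genes). In the mitochondrial set 10 of 78 fell and 1 rose (median -0.12). Rps25 (ENSMUSG00000009927, chr9:44318436-44321724), a small-subunit protein used in internal initiation, led the cytosolic falls, with 11506, 10857 and 10902 normalized counts against 12525, 14231 and 14573 with LPS alone. All LPS+DMF libraries were lower, as its choice required, at -0.31 ± 0.08 (adjusted p = 0.0162). Of all tested genes, 42.4% were apart in this comparison. Mrpl34 led the mitochondrial falls, with 703, 603 and 648 against 1319, 835 and 1032 (-0.68 ± 0.14, adjusted p = 0.00762), again without overlap and with LPS replicate 1 the highest. Exons of both Rps25 and Mrpl34 overlap genes on the other strand, whose reads cannot be told apart here. Mrps6 was the rise, with 631, 718 and 650 against 556, 442 and 454 (0.47 ± 0.11, adjusted p = 0.0115). The other mitochondrial falls were Mrpl11 (-0.55), Mrpl18 (-0.47), Mrps28 (-0.44), Mrpl45 (-0.44), Mrpl42 (-0.39), Mrpl28 (-0.32), Mrps25 (-0.30), Mrps15 (-0.29) and Mrps9 (-0.29). With the replicate block, which the numbers supported here, 12 cytosolic (4 higher, 8 lower) and 25 mitochondrial members (3 higher, 22 lower) were called. The share of all genes under the block is not given. Without LPS replicate 1 the counts were 4 and 9, with medians of -0.03 and -0.09. Without LPS replicate 2 the counts were 8 and 18, and without LPS replicate 3 they were 0 and 4. Without LPS+DMF replicate 2 or 3 they were 0 and 5 in each case, and without LPS+DMF replicate 1 the cytosolic count was 3. The Rps25 call was lost without LPS replicate 3 (adjusted p = 0.0813) or LPS+DMF replicate 2 or 3 (adjusted p = 0.06 and 0.0797), and the Mrps6 call without LPS replicate 3 (adjusted p = 0.0562).

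With LPS+MMF at 24 h no member of either set was called against LPS, and 0.0% of all genes were called. The medians were 0.03 and -0.02, and 3 cytosolic and 2 mitochondrial members had an unadjusted p below 0.05, with 0 by edgeR. The 95% interval of the change lay within 1 on the log2 scale for all 77 cytosolic and all 78 mitochondrial members tested, and within 0.5 for 67 and 75. Mrpl34 changed by -0.14 (95% interval -0.47 to 0.19) and Rps25 by 0.05 (-0.13 to 0.22). The replicate block, supported by the numbers here, gave 3 cytosolic calls, 2 higher and 1 lower.

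LPS+CBD at 24 h, at its dose of 6 µM, had more members called, in a comparison where 24.8% of all genes were lower and 23.9% higher. In the cytosolic set 17 of 77 fell and 0 rose (median -0.11), and in the mitochondrial set 17 of 78 fell and 6 rose (median -0.11), so the falls were near the share over all genes. Rps29, a zinc-binding small-subunit protein, had 3639, 3373 and 4190 normalized counts against 5906, 8186 and 4605 with LPS alone (-0.70 ± 0.18, adjusted p = 0.0097), with LPS replicate 2 far above the others. Rps25 had 10330, 9342 and 9455 against 12613, 14369 and 14680 (-0.51 ± 0.09, adjusted p = 0.00135). The groups were apart for both, beside 58.7% of all tested genes, and for Rps29 this was set by its choice. Rps6 (-0.33), Rpl11 (-0.34), Rpl3 (-0.34), Rpl41 (-0.33) and Rps27l (-0.21) fell as well, whereas Rplp0, Rplp1 and Rpsa had values of 0.24, 0.05 and -0.02 and were not called.

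Mrpl34 was the largest mitochondrial fall with LPS+CBD too, with 588, 545 and 633 against 1329, 843 and 1040 normalized counts (-0.84 ± 0.15, adjusted p = 0.00148). Mrpl58 was the largest rise, with 529, 432 and 489 against 280, 280 and 298 (0.75 ± 0.11, adjusted p = 0.000413). Neither overlapped. The other rises were Mrpl24 (0.44), Mrpl27 (0.43), Mrpl19 (0.38), Mrpl1 (0.32) and Mrps14 (0.32), and Mrpl12 was among the falls (-0.37 ± 0.09, adjusted p = 0.0072). All 12 alternatives kept the calls of Mrpl34, Mrpl58 and Rps29 in this comparison. Without any 1 library the counts ran from 12 to 19 cytosolic and from 19 to 27 mitochondrial members. The share of reads from the mitochondrial genome was 1.25 to 1.4% in the LPS+CBD 24 h libraries and 1.44% in LPS 24 h replicate 1, against 1.83 to 2.32% in the other 32 libraries. Without that LPS replicate, 19 cytosolic and 20 mitochondrial members were called, with medians of -0.14 and -0.11.

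**Figure D5:**
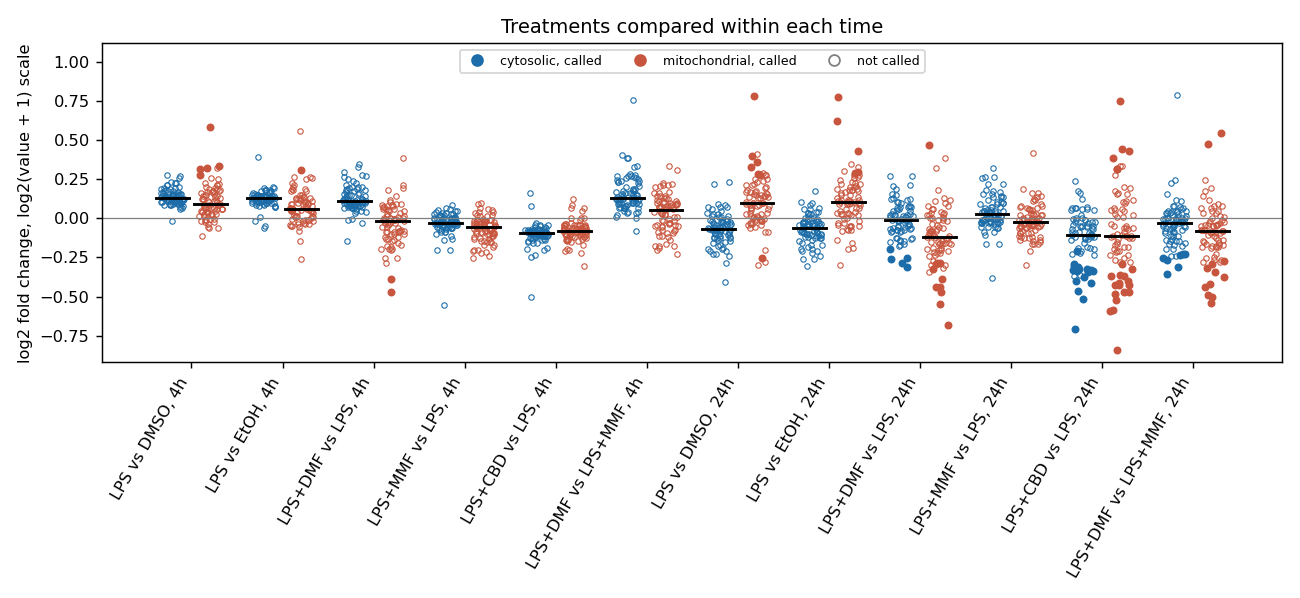
Log2 change of each tested member in the 12 comparisons between treatments at 4 h and at 24 h, for both sets. Filled points passed at an adjusted p below 0.05 in limma and bars are medians, which stay between -0.12 and 0.13, with most filled points in the comparisons of LPS+CBD and LPS+DMF at 24 h.

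The pathway lists at 24 h are given for each drug against the same LPS libraries, and no test was made of the lists between drugs. Of all genes, 24.8% were lower and 23.9% higher with LPS+CBD, 13.2% and 11.9% with LPS+DMF and 0.0% with LPS+MMF. With LPS+CBD, 31 of 52 biogenesis factors fell and 1 rose (median -0.30), 10 of 19 elongation and TOP genes fell and 2 rose (-0.24), 25 of 77 respiratory subunits fell and 1 rose (-0.17), 4 of 31 mitochondrial translation factors fell and 4 rose (0.09), and 6 of 11 mitochondrial genome mRNAs fell (-0.63). For the latter, the median deviation from the mean of all libraries on the log2 scale was -0.74, -0.87 and -0.82 in the LPS+CBD libraries and -0.63, 0.11 and -0.08 in the LPS libraries, so LPS replicate 1 lay near the LPS+CBD group. With LPS+DMF, 2 of 52 biogenesis factors fell and 2 rose (-0.00), 6 of 19 elongation and TOP genes fell and 1 rose (-0.18), 12 of 77 respiratory subunits fell and 1 rose (-0.12), and 1 of 31 mitochondrial translation factors moved each way (-0.07). With LPS+MMF 0 were called in any of these lists. Cell division genes fell in 20 of 20 with LPS+CBD (median -1.19) and in 19 of 20 with LPS+DMF (-0.74), with 0 called with LPS+MMF (-0.10), and their part in the member changes was not tested.

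DMF and MMF, which differ by a methyl ester, were compared directly at the same dose and times, in 2 comparisons adjusted each over all genes. At 4 h no member was called (medians 0.13 and 0.05, LPS+DMF over LPS+MMF), where 8.34% of all genes were (3.37% higher, 4.97% lower), with 0 cytosolic and 2 mitochondrial members at an unadjusted p below 0.05 and 0 by edgeR. The 95% intervals lay within 1 on the log2 scale for 74 of 77 cytosolic and 78 of 78 mitochondrial members and within 0.5 for 55 and 72, so smaller differences cannot be told at this replication. Without LPS+DMF replicate 1, 0 members were called and the medians were 0.05 and -0.05. At 24 h, 7 of 78 cytosolic members were lower with LPS+DMF and 0 higher (median -0.03), and 10 of 78 mitochondrial members were lower and 2 higher (median -0.08), beside 11.4% lower and 10.1% higher over all genes. With the replicate block, which the numbers supported, 19 cytosolic (2 higher, 17 lower) and 24 mitochondrial members (4 higher, 20 lower) differed. The share of all genes under the block is not given, so these counts cannot be set against it. The cytosolic count was 3, 2 and 3 without LPS+DMF replicate 2 or 3 or LPS+MMF replicate 3, and the mitochondrial count 5, 7 and 5 without LPS+DMF replicate 3 or LPS+MMF replicate 1 or 3.

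Rps25 had 11765, 11150 and 11163 normalized counts with LPS+DMF against 14005, 14563 and 15063 with LPS+MMF at 24 h, which is -0.36 ± 0.06 (95% interval -0.49 to -0.22, adjusted p = 0.00401). Mrpl34 had 719, 619 and 664 against 995, 878 and 1046, which is -0.54 ± 0.09 (-0.74 to -0.34, adjusted p = 0.00386). Mrps6 had 645, 738 and 665 against 465, 494 and 446, which is 0.54 ± 0.09 (0.35 to 0.73, adjusted p = 0.00291). All 3 were apart in every library, which their choice required, beside 39.3% of all tested genes. Their calls held in all 12 alternatives. Among genes with further roles, Rps6 was lower (-0.24), Mrps36, since also described in the oxoglutarate dehydrogenase complex, was lower (-0.49) and Mrpl58 was higher (0.47) with LPS+DMF. Cell division genes were lower with LPS+DMF in 19 of 20 (median -0.61), and their part was not tested. CBD was given at another dose, so its values are only set beside these.

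Whether a drug's difference from LPS at 24 h departed from that at 4 h was tested over the 12 libraries of each drug. For LPS+DMF, 0 cytosolic members were called (median -0.14, 5 at an unadjusted p below 0.05, 0 by edgeR) and 6 mitochondrial members were, 1 higher and 5 lower, beside 16.4% of all genes. For LPS+CBD, 1 cytosolic member (Rps25, lower) and 13 mitochondrial members (6 higher, 7 lower) were called, beside 31.9%. For LPS+MMF 0 were called in either set and 0.0% of all genes, with 1 and 2 at an unadjusted p below 0.05 and 0 by edgeR. Without LPS 4 h replicate 2, which stood apart, the cytosolic counts were 5 for LPS+DMF and 11 for LPS+CBD, all lower, and 0 for LPS+MMF. Without LPS+DMF 4 h replicate 1, LPS+DMF had 0 cytosolic (median -0.05) and 6 mitochondrial members called, 3 higher and 3 lower. The cytosolic count for LPS+DMF was 1 without LPS 24 h replicate 1 or LPS+DMF 4 h replicate 2, that for LPS+CBD was 0 without any of 8 other libraries, and the mitochondrial count for LPS+CBD was 8 without LPS 4 h replicate 3. Without LPS 24 h replicate 1, the counts for LPS+CBD were 1 cytosolic and 11 mitochondrial. The LPS+DMF mitochondrial count was 3 or 2 without LPS 4 h replicate 1 or 3, LPS 24 h replicate 3 or LPS+DMF 24 h replicate 2 or 3.

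Between the vehicles no member passed in limma. At 4 h and at 24 h 0 members of either set were called between DMSO and EtOH (0.0% and 0.00854% of all genes). At an unadjusted p below 0.05 there were 1 cytosolic and 5 mitochondrial members at 4 h, and 0 and 2 at 24 h, with 0 by edgeR. The replicate block, supported by the numbers, gave 6 cytosolic (2 higher, 4 lower) and 3 mitochondrial (3 lower) members at 4 h.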

How the data were processed

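Poly(A)+ RNA of BV-2 cells was sequenced as paired-end reads. According to the study's methods and the submitters' processing notes, the authors trimmed reads with cutadapt 4.4 and Trimmomatic 0.39, aligned them to GRCm39 with HISAT2 2.2.1, counted genes with HTSeq 2.0.3 on an Ensembl annotation and scaled them with DESeq2 1.40.2. The strand setting and the handling of reads that fit several places are not given in the sources used here. The deposited signal values are normalized read counts, that is counts divided by a size factor set within each table of 2 groups. The authors' fold changes, test statistics and p-values in the same tables were not used. Whole reads were recovered from the deposited values: 100% of 2083074 values came out whole within 0.01 reads. Libraries held 14.1 to 26.7 M reads, and 29 rows without a symbol (0.00732 to 0.0248% of reads) were kept in the library totals and in the fits over all genes.

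Each comparison was fitted with limma 3.58.1 (trend on mean level, R 4.3.3) on log2(normalized count + 1) in its own 6 libraries, over genes with at least 10 normalized counts in at least 3 libraries, with Benjamini-Hochberg adjustment over all of them and a threshold of 0.05. Interactions used 12 libraries scaled together, and those of time with LPS or vehicle, as well as the fit without both libraries that stood apart, were added after seeing the data. Alternatives were a pseudocount of 5, no filter, TMM scaling, edgeR 4.0.16 on the recovered reads, removal of a length and GC trend, the replicate number as a block and each library left out. The code was tested on simulated data. Replicates are 3 independent experiments. Replicate numbers were taken to pair libraries where all same-number correlations of deviations exceeded 0.1, which held in 10 of 16 comparisons. LPS and vehicle groups share no numbers. Libraries of a group differed beyond sampling noise (chi-square per degree of freedom 4.60 to 29.1 over 36 pairs). Named members were those with a known separate role or a paralog, the highest and lowest levels per length, members called most each way in interactions, and the largest called rise and fall of each set in each comparison among members with a mean of at least 50 normalized counts in the higher group and no overlap of libraries, so that their lack of overlap was set by the choice. Members, lists and tests were chosen with earlier results of these data known. Positions are GRCm39, and start windows come from RefSeq (GRCm38.p6).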

Additional observations from a re-analysis of the deposited data

Results flagged for a closer look

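The drug effects below differed between 4 and 24 h in a test of the difference itself (limma on 12 libraries, adjusted over all genes). With LPS+DMF, 6 mitochondrial members and 0 cytosolic members were called, where 16.4% of all genes were, and with LPS+CBD 1 of 77 cytosolic and 13 of 78 mitochondrial members, where 31.9% of all genes were. The shares of members were thus below those of all genes. The LPS+DMF effect on Mrps2 was higher at 24 h by 0.44 ± 0.11 (SE, adjusted p = 0.0156), as Mrps2 stood at -0.39 against LPS at 4 h and at 0.06 at 24 h (1690, 1531 and 1592 against 1558, 1471 and 1587 normalized counts). The LPS+DMF effect on Mrps33 differed by -0.74 ± 0.21 (adjusted p = 0.0236), between 411, 268 and 300 against 240, 247 and 249 normalized counts at 4 h and 185, 179 and 189 against 208, 235 and 264 at 24 h. Neither time alone passed for Mrps33, and the test of its difference was lost without LPS+DMF 24 h replicate 2 (adjusted p = 0.0557) or LPS 24 h replicate 3 (adjusted p = 0.0677).

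The LPS+CBD effect on Mrpl34 differed by -0.79 ± 0.19 (adjusted p = 0.00572), from -0.04 at 4 h to -0.84 at 24 h. For Mrpl58 the difference was 0.80 ± 0.16 (adjusted p = 0.00216), with 280, 228 and 284 against 253, 262 and 296 normalized counts at 4 h. For Rps25 it was -0.42 ± 0.14 (adjusted p = 0.0321), a call of Rps25 that was lost in 9 of 18 alternatives, with an adjusted p of up to 0.0807 without LPS 24 h replicate 3.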

How the results depend on the processing

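Of 542 recomputed values for named members, 494 kept their call, 48 lost it and 0 changed sign. Of 654 recomputed set medians, 644 moved by less than 1 SD and 54 changed sign, in 20 medians of which 14 were within 0.05 of 0. Low counts limit Rpl3l, Rpl39l and Rpl24, and 3 libraries a group limit the rest. For Rpl24, reads that fit copies elsewhere or the same-strand model Gm28037 may also not have been counted. With no filter, the called counts became 1 cytosolic and 2 mitochondrial (LPS against DMSO, 4 h), 1 mitochondrial (LPS+DMF, 4 h), 3 cytosolic (LPS+DMF, 24 h), 1 cytosolic (time in LPS), 0 cytosolic (LPS+CBD time difference) and 1 cytosolic (LPS minus DMSO time change). With the length and GC trend removed, they became 2 mitochondrial for LPS against DMSO, LPS against EtOH and LPS+DMF against LPS+MMF at 4 h, 17 and 6 cytosolic for LPS against DMSO and EtOH at 24 h, 20 and 6 cytosolic for time in LPS+DMF and LPS+MMF, 4 cytosolic and 11 mitochondrial for the LPS+DMF time difference and 6 cytosolic for that of LPS+CBD. The cause was not tested.

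With the replicate block, the counts became 6 cytosolic and 3 mitochondrial (DMSO against EtOH, 4 h), 12 and 25 (LPS+DMF, 24 h), 3 cytosolic (LPS+MMF, 24 h), 19 and 24 (LPS+DMF against LPS+MMF, 24 h), 55 (time in DMSO, where the numbers did not pair), 7 (LPS) and 18 (LPS+MMF) cytosolic, 10 mitochondrial (LPS+DMF time difference), 4 and 22 (that of LPS+CBD), and 5 and 2 cytosolic (LPS minus DMSO and minus EtOH). No other count moved by over 1.5 times under the block. Shares of all genes under the block are not given, so a higher count is not shown to be particular to members. For LPS against a vehicle, no paired analysis was made, because the groups share no replicate numbers and no label links a vehicle number to an LPS number.

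Leaving out each library gave these ranges of calls. For LPS against DMSO they were 0 to 1 cytosolic and 0 to 4 mitochondrial at 4 h and 0 to 5 and 1 to 12 at 24 h, and against EtOH 0 and 0 to 1, then 0 to 7 and 2 to 10. LPS+DMF against LPS gave 0 and 0 to 3, then 0 to 8 and 4 to 18, and LPS+CBD at 24 h gave 12 to 19 and 19 to 27. LPS+MMF at both times, LPS+CBD and LPS+DMF against LPS+MMF at 4 h and DMSO against EtOH gave 0 in each. LPS+DMF against LPS+MMF at 24 h gave 2 to 8 and 5 to 14. Time gave 15 to 51 and 41 to 52 in DMSO, 21 to 41 and 48 to 57 in EtOH, 1 to 10 and 37 to 46 in LPS, 10 to 22 and 38 to 53 in LPS+DMF, 1 to 12 and 34 to 46 in LPS+MMF, and 16 to 19 and 45 to 52 in LPS+CBD. The time differences gave 0 to 5 and 2 to 8 for LPS+DMF, 0 to 11 and 8 to 14 for LPS+CBD, and 0 to 1 in either set for LPS minus DMSO and minus EtOH.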
